A study of Mus musculus with 30 samples.

Results

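The Hox cluster genes were taken as every gene of the count table whose mouse symbol is, in full, Hoxa, Hoxb, Hoxc or Hoxd followed by a number. Of 53431 genes in the table, 39 met this rule: 11 of the Hoxa cluster, 10 of Hoxb, 9 of Hoxc and 9 of Hoxd. They were measured by RNA-seq of poly-A RNA in 30 libraries that form 8 groups. CT-26 and Colon 26 are mouse colon carcinoma lines of BALB/c origin, and each was sequenced as 3 cultures and as tumors of about 100, 400 and 800 mm3. Each size had 4 tumors. Tumors were grown from cells injected in the right flank of BALB/c females with an intact immune system, so each tumor library holds RNA of the cancer cells and of host cells. The labels describe antibody dosing but name no antibody for any sample, so samples were grouped by line and tumor size alone. The age of the mice is not given in the sources used here. Nothing in them says whether the 3 cultures of a line were grown separately, so p-values measure the spread between these samples, which may be technical. The comparison of the lines asks how the transcriptomes of a pair of models that differ in their response to anti-PD-1 treatment differ.

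Hox genes encode homeodomain transcription factors that give cells of the embryo their position along the body axis. They lie in 4 clusters in mammals, in the order of the body regions in which they act: low-numbered genes act toward the head and high-numbered genes toward the tail. Adult tissues keep part of this code, so that fibroblasts, muscle and gut of different body sites can be told apart by their Hox genes, and Polycomb and Trithorax proteins hold the genes silent or active.

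In GRCm38, the Hoxa cluster spans bases 52155590 to 52260880 of chromosome 6 (minus strand) and the Hoxb cluster bases 96194316 to 96368256 of chromosome 11 (plus strand). The Hoxc cluster spans bases 102921103 to 103036852 of chromosome 15 and the Hoxd cluster bases 74668310 to 74765142 of chromosome 2, both in plus orientation. Exons of 16 members overlap those of another gene, on the same strand for 9 and on the other strand for 10, and how the counting treated strand is not given in the sources used here. Values of Hoxc5 and Hoxc10, which share exon sequence, of Hoxd3 and Hoxd4, which also do, of Hoxa2, Hoxa9 and Hoxd10, which overlap exons of Gm28308, Mir196b and Gm28309 on the same strand, and of Hoxa3, Hoxa4, Hoxa7, Hoxa11, Hoxb2, Hoxb3 and Hoxb5, which lie over genes of the other strand, are therefore uncertain.

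Library totals ran from 21384730 to 39722586 counts, and the 3 Colon 26 cultures, at 36042940 to 39722586 counts, were deeper than any other library. Their library numbers also stand apart from those of all other libraries, and the numbers of the CT-26 cultures stand apart from those of the tumors. No label names a batch. If the numbers reflect batches, batch and line cannot be told apart in the comparison of cultures. Nor can batch and tissue be told apart where tumors are compared with cultures, in either line or in the difference between the lines. Levels are given as CPM, counts scaled to library size with edgeR's TMM factors. A member was taken to be at the floor in a group where every library had 3 or fewer counts, which stands for 0.0756 to 0.135 CPM over the 30 libraries. Of the colon epithelium markers, Epcam had no count in any culture of either line, Cdh1 and Vil1 were at the floor in CT-26 cultures, and Cdh1 and Krt18 were at the floor in Colon 26 cultures. The other 5 of 8 were above the floor in each line, with means of 24.7 CPM Krt20, 15.7 CPM Krt18 and 3.45 CPM Lgals4 in CT-26 cultures and 6.22 CPM Cdx2, 5.68 CPM Krt20 and 3.5 CPM Lgals4 in Colon 26 cultures. Cell counts and RNA per cell cannot be told apart in bulk samples: a lower level can mean fewer cells of a type or less RNA in each. A gene was called where edgeR's quasi-likelihood test gave a Benjamini-Hochberg adjusted p no higher than 0.1 over all genes tested and the log2 fold change was 1 or more in size. Every adjusted p given is from that test. Genes with too few counts were filtered out before it. A member at the floor on either side of a comparison was tested only through its counts on the other side, so its adjusted p is not independent support.

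The lines kept different numbers of Hox genes above the floor in culture, and more members were above it in tumors. In CT-26 cultures 20 of 39 members were above the floor, against 26 in Colon 26 cultures. CT-26 tumors held 29 members above the floor at each size, and Colon 26 tumors held 31 at 100 mm3, 31 at 400 mm3 and 32 at 800 mm3. With a floor of 10 counts the numbers were 20 and 24 for the cultures, 27, 26 and 25 for CT-26 tumors, and 28, 28 and 27 for Colon 26 tumors. By the floor of 3 counts, all 20 members above it in CT-26 cultures were also above it in every other group. By the floor of 10 counts, Hoxa13 was at the floor in CT-26 tumors of 100 mm3. Hoxd3 was at that floor in CT-26 tumors of 800 mm3 and in all groups of Colon 26 tumors. Depth and the number of libraries enter these numbers, since a single library can lift a group above the floor. The floor of 3 counts stood for 0.112 to 0.135 CPM in CT-26 cultures and 0.0756 to 0.0847 CPM in Colon 26 cultures. Tumor groups had 4 libraries each and the cultures of a line had 3.

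By cluster, CT-26 cultures expressed 9 of 11 Hoxa, 5 of 10 Hoxb, 3 of 9 Hoxc and 3 of 9 Hoxd members, and Colon 26 cultures expressed 11, 8, 4 and 3. By position, the difference between the cultures lay mostly in the middle of the clusters: 11 of 15 members at positions 4 to 8 were above the floor in CT-26 cultures and 15 of 15 in Colon 26 cultures. Of the 16 members at positions 9 to 13, 4 were above the floor in CT-26 cultures and 5 in Colon 26 cultures, against 8 in each group of CT-26 tumors and 10, 10 and 11 in Colon 26 tumors of rising size. At positions 1 to 3, 5 of 8 members were above it in CT-26 cultures and 6 of 8 in every other group. With a floor of 10 counts, positions 4 to 8 held 11 members in CT-26 cultures and 14 in Colon 26 cultures. Positions 9 to 13 then held 4 and 5 in the cultures. In tumors of rising size they held 6, 6 and 7 in CT-26, and 8, 8 and 7 in Colon 26. Positions 1 to 3 held 6, 6 and 5 in CT-26 tumors and 5 in every other group.

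The members at the floor in CT-26 cultures and above it in Colon 26 cultures were Hoxa4, Hoxa11, Hoxb2, Hoxb4, Hoxb7 and Hoxc8, and 0 members showed the reverse. Hoxa4 and Hoxb2 reached at most 0.252 and 0.103 CPM in Colon 26 cultures, and the other four were called between the lines. Hoxc9, Hoxc10, Hoxd9 and Hoxd10 were at the floor in all cultures of both lines and above it in every tumor group. At the floor in all 8 groups were Hoxb1, known from the hindbrain, Hoxb13, known from the prostate and the hindgut, Hoxc12, Hoxc13, a hair follicle gene, Hoxd1, Hoxd11 and Hoxd12. No library had a count for Hoxb1, Hoxb13, Hoxc12 or Hoxd12, which allows up to 3 counts in each. The remaining members, Hoxc11 and Hoxd13, stayed near the floor, with at most 0.146 and 0.131 CPM in any library.

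**Figure D1:**
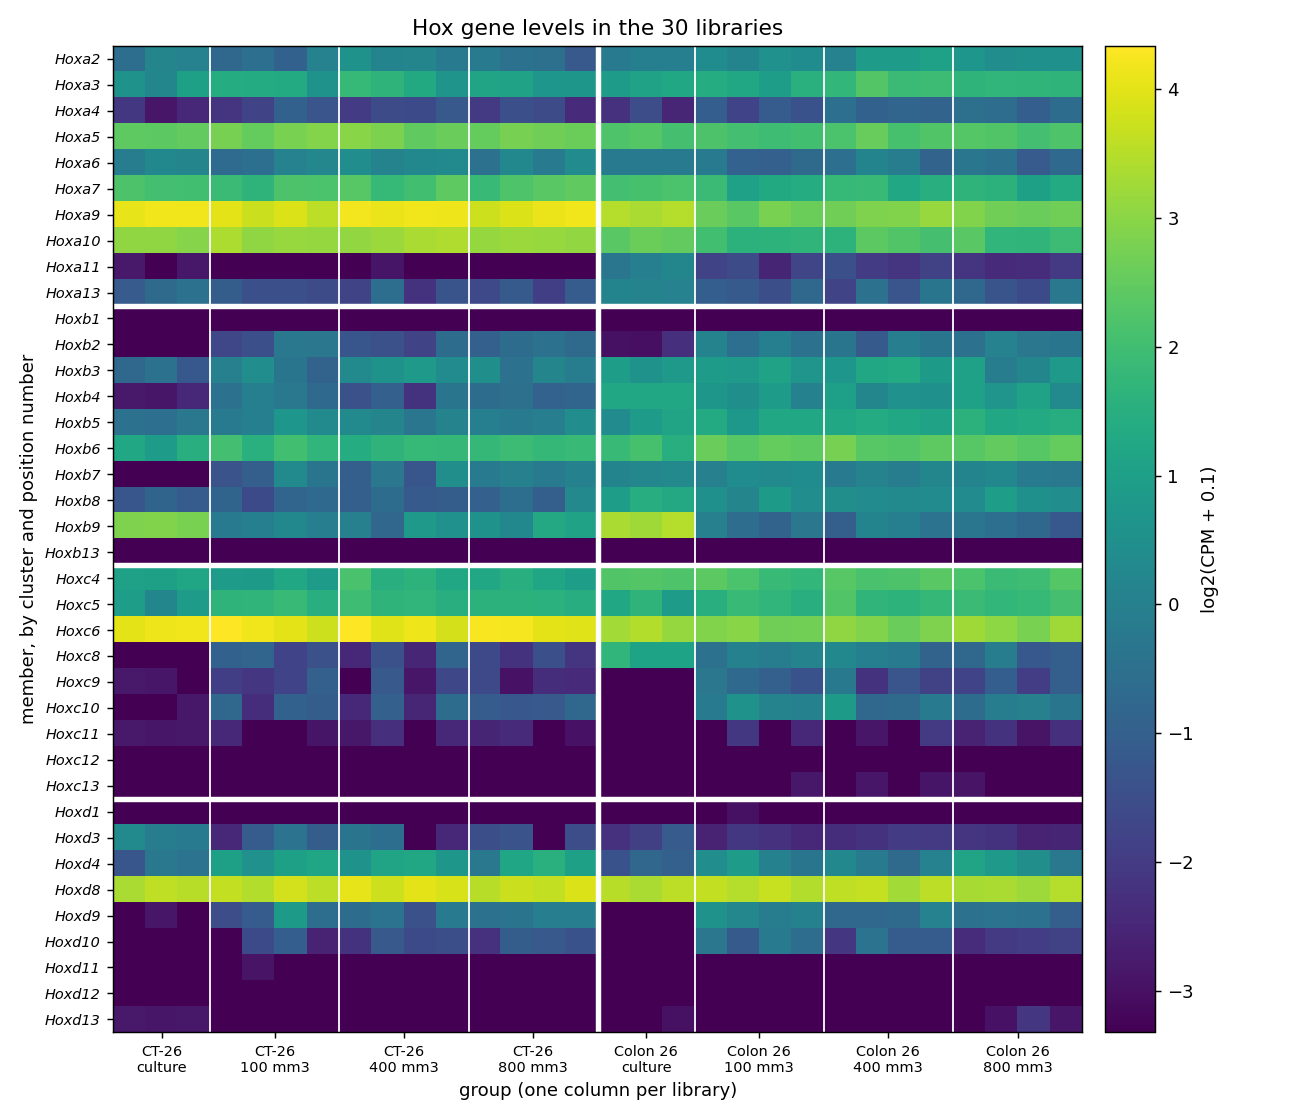
Heat map of log2(CPM + 0.1) for the members reported, in rows by cluster and position number, over the 30 libraries, in columns by group, with CT-26 left and Colon 26 right of the thick line. Hoxa9, Hoxc6 and Hoxd8 are high in every library, Hoxb9 is high in the 6 cultures, and Hoxc9, Hoxc10, Hoxd9 and Hoxd10 are dark in the cultures and lighter in tumors.

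Per length, the highest members were the same few genes in both lines. In FPKM, fragments scaled to gene length and library size, Hoxc6, a gene of the thoracic region, ranked highest in CT-26 cultures with a mean of 10.9 and in Colon 26 cultures with 6.09. Hoxa9, a regulator of blood stem cells and of leukemia, followed with 8.25 and 4.92 FPKM, and Hoxd8 with 4.60 and 4.51 FPKM. At its highest, in CT-26 tumors of 800 mm3, Hoxc6 stood at the percentile 75.9 of the genes with a mean FPKM above 0. Hoxb9 ranked 6 in CT-26 cultures at 2.76 FPKM and 4 in Colon 26 cultures at 3.92 FPKM, and was among the top 6 of no tumor group. In Colon 26 tumors of 100 and 400 mm3, Hoxd8 came before Hoxc6, with mean FPKM of 4.85 against 4.54 and 4.72 against 4.59, differences smaller than the spread between tumors.

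Summed over a cluster, Hoxa and Hoxc stood lower and Hoxb higher in Colon 26 than in CT-26 in all 4 settings. The summed FPKM of Hoxa was 21.2 ± 0.702 (SD, n = 3) in CT-26 cultures and 16.9 ± 0.387 (SD, n = 3) in Colon 26 cultures. In tumors it was 19.1 ± 1.70, 21.4 ± 1.20 and 20.0 ± 1.28 for CT-26 at 100, 400 and 800 mm3, and 11.4 ± 1.01, 13.9 ± 1.33 and 12.5 ± 1.03 for Colon 26 (SD, n = 4 each). Hoxb summed to 5.0 ± 0.332 FPKM in CT-26 cultures and 10.0 ± 0.514 in Colon 26 cultures, and the highest CT-26 tumor, at 6.02, lay below the lowest Colon 26 tumor, at 7.35. Hoxc sums of 12.5 ± 0.726 and 10.4 ± 1.10 FPKM in the cultures did not overlap, nor did those of tumors of the same size. At 400 mm3 the highest Colon 26 tumor lay next to the lowest CT-26 tumor, both at 11.9 FPKM after rounding. Across sizes the lines overlapped, since the lowest CT-26 tumor of 100 mm3 held 10.9 FPKM. Hoxd sums were 5.31 ± 0.440 and 4.84 ± 0.247 FPKM in the cultures, with overlap, and 4.63 to 8.36 over all tumors. These sums carry the few high members of each cluster and were not tested.

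**Figure D2:**
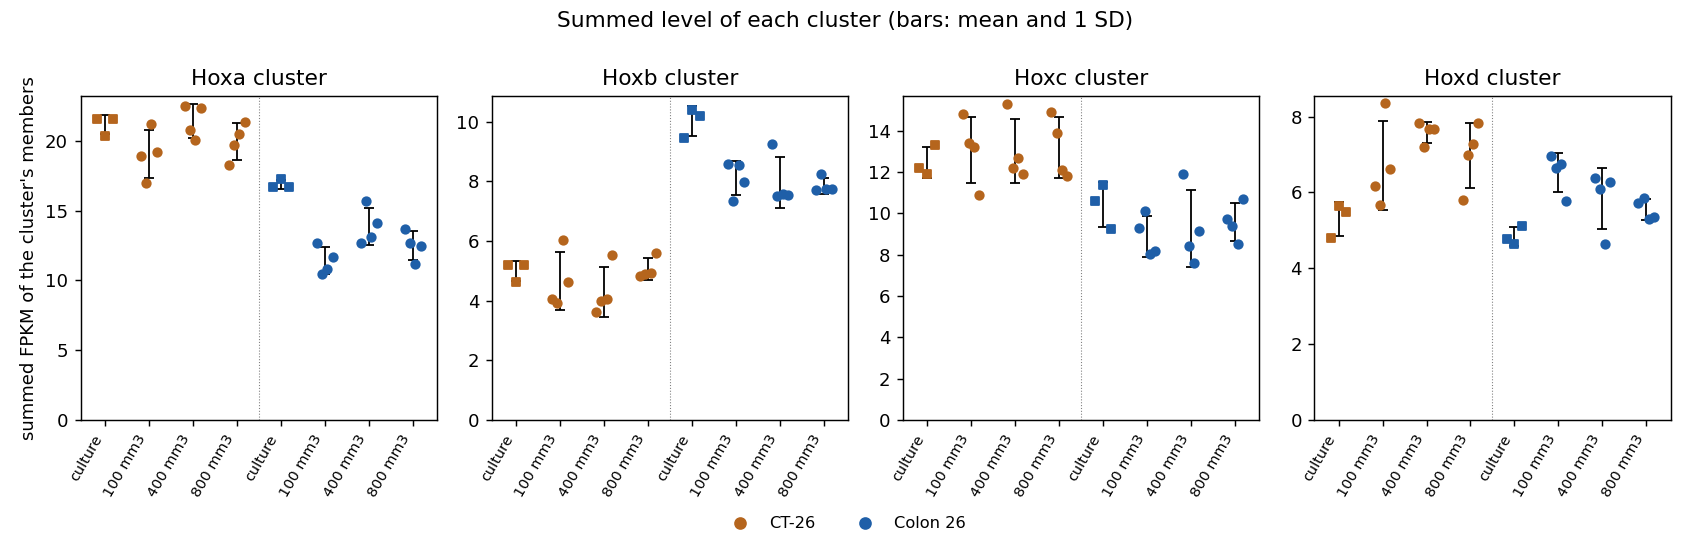
Summed FPKM of the members of each cluster (vertical axes, each starting at 0) in the 8 groups, with a point per library and the mean and 1 SD as bars. The Hoxa sum is 20.4 to 21.6 in CT-26 cultures and 16.7 to 17.3 in Colon 26 cultures, and all Hoxb points of Colon 26 lie above those of CT-26.

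Between the cultures, 5 Hoxb and 2 Hoxc genes of positions 3 to 8 were called higher in Colon 26, and Hoxb4, Hoxb7 and Hoxc8 among them had at most 3 counts in each CT-26 culture. Of 24 members tested, 9 were called, against 22.9% of all genes tested. Hoxa11, Hoxb3, Hoxb4, Hoxb5, Hoxb7, Hoxb8, Hoxc4 and Hoxc8 were higher in Colon 26, where 10.6% of all genes were called higher, and Hoxd3 was lower, where 12.3% of all genes were called lower. The median log2 fold change was 0.46 over the members tested and 0.01 over all genes tested. A further 15 members had too few counts to be tested, and Hoxa13 (0.91 (SE 0.27, adjusted p = 0.0064)) was called as well without CT-26 culture replicate 3 (1.09).

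Hoxc8, a gene of the thoracic and upper limb region, held 0.0, 0.0 and 0.0 CPM in the 3 CT-26 cultures and 3.16, 2.07 and 2.06 CPM in the 3 Colon 26 cultures. CT-26 tumors carried Hoxc8 at 0.415, 0.464, 0.192 and 0.275 CPM at 100 mm3, 0.0789, 0.275, 0.0774 and 0.468 CPM at 400 mm3, and 0.223, 0.116, 0.269 and 0.124 CPM at 800 mm3. Hoxc8 in Colon 26 tumors was at 0.62, 0.92, 0.82 and 0.97 CPM at 100 mm3, 1.08, 0.889, 0.799 and 0.437 CPM at 400 mm3, and 0.484, 0.826, 0.327 and 0.402 CPM at 800 mm3. No CT-26 culture had a count of Hoxc8, all Colon 26 cultures stood above every tumor of either line, and the tumor groups overlapped at 400 mm3. Against a floor of 3 counts per library, Hoxc8 was at least 19.7-fold higher in Colon 26 cultures (adjusted p = 1.6e-08). In tumors its log2 fold change was 1.29 (SE 0.3, adjusted p = 0.0071), 1.84 (SE 0.54, adjusted p = 0.023) and 1.49 (SE 0.42, adjusted p = 0.012) at 100, 400 and 800 mm3.

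Hoxb7, a gene of the thoracic region with a part in kidney duct branching, held 0.0, 0.0 and 0.0 CPM in the 3 CT-26 cultures and 0.988, 1.06 and 1.11 CPM in the 3 Colon 26 cultures. CT-26 tumors carried Hoxb7 at 0.291, 0.398, 1.15 and 0.688 CPM at 100 mm3, 0.394, 0.723, 0.31 and 1.28 CPM at 400 mm3, and 0.817, 0.901, 0.772 and 0.926 CPM at 800 mm3. Hoxb7 in Colon 26 tumors was at 0.914, 1.22, 1.16 and 1.21 CPM at 100 mm3, 0.789, 0.966, 0.829 and 1.05 CPM at 400 mm3, and 0.999, 1.09, 0.786 and 0.731 CPM at 800 mm3. The cultures lay apart, with no count in CT-26, while the tumors of the lines overlapped at every size. Hoxb7 was at least 8.51-fold higher in Colon 26 cultures (adjusted p = 1.6e-07). In tumors its log2 fold changes of 0.82, 0.44 and 0.07 at 100, 400 and 800 mm3 did not pass (adjusted p = 0.11, 0.42 and 0.81).

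Hoxb4, which widens the pool of blood stem cells when raised, held 0.0451, 0.0373 and 0.0822 CPM in the 3 CT-26 cultures and 2.32, 2.24 and 2.31 CPM in the 3 Colon 26 cultures. CT-26 tumors carried Hoxb4 at 0.623, 0.894, 0.73 and 0.516 CPM at 100 mm3, 0.276, 0.413, 0.116 and 0.681 CPM at 400 mm3, and 0.557, 0.61, 0.436 and 0.463 CPM at 800 mm3. Hoxb4 in Colon 26 tumors was at 1.57, 1.3, 1.75 and 0.929 CPM at 100 mm3, 1.91, 1.04, 1.38 and 1.35 CPM at 400 mm3, and 1.97, 1.5, 2.03 and 1.13 CPM at 800 mm3. The lowest Colon 26 library lay above the highest CT-26 library. In culture Hoxb4 was at least 18.6-fold higher in Colon 26 (adjusted p = 8.5e-10). In tumors its log2 fold change was 1.0 (SE 0.26, adjusted p = 0.011) at 100 mm3, short of the limit of 1 before rounding, 1.94 (SE 0.44, adjusted p = 0.0067) at 400 mm3 and 1.66 (SE 0.25, adjusted p = 0.00033) at 800 mm3. Leaving out any of CT-26 replicates 2 and 3 or Colon 26 replicates 2 and 4 at 100 mm3 brought Hoxb4 over the limit there, at 1.04 to 1.14.

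Hoxa11, which with Hoxa10 shapes the uterus and the limb, held 0.0451, 0.0 and 0.0411 CPM in the 3 CT-26 cultures and 0.706, 0.882 and 1.05 CPM in the 3 Colon 26 cultures. CT-26 tumors carried Hoxa11 at no more than 0.0344 CPM, a single count in 1 tumor of 400 mm3. Hoxa11 in Colon 26 tumors was at 0.196, 0.243, 0.0746 and 0.202 CPM at 100 mm3, 0.263, 0.155, 0.123 and 0.182 CPM at 400 mm3, and 0.129, 0.0885, 0.0982 and 0.146 CPM at 800 mm3. The lines did not overlap in culture or in tumors. Hoxa11 was at least 7.13-fold higher in Colon 26 cultures (adjusted p = 8.1e-07). Its antisense neighbour Hoxa11os, whose reads may not be told from it, was at least 5.22-fold higher there as well. Too few counts were left to test Hoxa11 between the tumors, and without the filter on low counts, or by DESeq2, it was called higher in Colon 26 at each size.

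Hoxb8, a gene of blood progenitors and of microglia-linked grooming, held 0.315, 0.448 and 0.37 CPM in the 3 CT-26 cultures and 1.81, 2.65 and 2.36 CPM in the 3 Colon 26 cultures. CT-26 tumors carried Hoxb8 at 0.457, 0.232, 0.461 and 0.516 CPM at 100 mm3, 0.394, 0.551, 0.348 and 0.383 CPM at 400 mm3, and 0.409, 0.581, 0.403 and 1.11 CPM at 800 mm3. Hoxb8 in Colon 26 tumors was at 1.34, 1.03, 1.71 and 1.25 CPM at 100 mm3, 1.28, 1.2, 1.14 and 1.2 CPM at 400 mm3, and 1.19, 1.83, 1.34 and 1.24 CPM at 800 mm3. The groups did not overlap at any size, although the value of 1.11 CPM in CT-26 replicate 4 at 800 mm3 came near the lowest Colon 26 tumor there. The log2 fold change was 2.53 (SE 0.27, adjusted p = 2.2e-07) in culture and 1.67 (SE 0.28, adjusted p = 0.0013), 1.51 (SE 0.22, adjusted p = 0.00065) and 1.14 (SE 0.34, adjusted p = 0.017) in tumors of 100, 400 and 800 mm3. Hoxb8 and Hoxc8, paralogs at position 8, were the members called higher in Colon 26 in all 4 comparisons, although Hoxb8 at 800 mm3 fell under the limit without CT-26 replicate 3 (0.97) or Colon 26 replicate 2 (0.99).

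The 250 bases before the start of Hoxb4 and Hoxb8 are shown because both genes were higher in Colon 26 cultures and tumors. They come from the RefSeq promoter table for GRCm38.p6, which held 22 of the 39 members and not Hoxb7, Hoxc8, Hoxa4 or Hoxb9. Capitals mark matches on either strand to 5 motifs. The TATA box was searched as TATAAA and the CCAAT box by the letters of its name. The GC box was searched as GGGCGG. The core letters bound by nuclear receptors were searched as AGGTCA. The letters bound by caudal-type factors such as Cdx2 were searched as TTTATG.
Hoxb4 (chr11:96318017-96318266, plus strand): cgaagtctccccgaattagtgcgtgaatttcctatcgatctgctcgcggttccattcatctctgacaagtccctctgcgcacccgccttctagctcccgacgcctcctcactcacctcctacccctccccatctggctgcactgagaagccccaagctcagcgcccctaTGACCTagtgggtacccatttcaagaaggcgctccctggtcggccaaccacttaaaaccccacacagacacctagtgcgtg
Hoxb8 (chr11:96281655-96281904, plus strand): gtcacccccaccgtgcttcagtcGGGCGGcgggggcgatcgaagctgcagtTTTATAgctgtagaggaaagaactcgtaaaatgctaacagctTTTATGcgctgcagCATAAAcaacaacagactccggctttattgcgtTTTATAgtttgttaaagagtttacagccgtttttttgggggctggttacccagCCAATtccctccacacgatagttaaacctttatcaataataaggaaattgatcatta
The stretch before Hoxb4 held 14 CpG and a single match, to the nuclear receptor letters on the minus strand, which 14.0% of all 32851 promoters in the table held. The stretch before Hoxb8 held 12 CpG, a match each to the CCAAT box and the GC box on the plus strand, 2 to the TATA box, both on the minus strand, and 2 to the caudal-type letters, 1 on each strand. Over all promoters, 12.4% held the TATA box, 33.8% the CCAAT box, 32.7% the GC box and 10.8% the caudal-type letters. Of the 22 member genes, 4 held the TATA box, 14 the CCAAT box, 10 the GC box, 6 the nuclear receptor letters and 5 the caudal-type letters. None of the matches shown overlap each other, and they are matches of letters and not sites of binding.

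Hoxb5, a gene of the gut nerve cells and the lung, held 0.631, 0.597 and 0.74 CPM in the 3 CT-26 cultures and 1.19, 1.74 and 2.11 CPM in the 3 Colon 26 cultures. CT-26 tumors carried Hoxb5 at 0.789, 0.894, 1.54 and 1.13 CPM at 100 mm3, 1.14, 1.03, 0.697 and 0.979 CPM at 400 mm3, and 0.892, 0.814, 0.873 and 1.24 CPM at 800 mm3. Hoxb5 in Colon 26 tumors was at 2.48, 1.6, 2.31 and 2.26 CPM at 100 mm3, 2.3, 2.51, 2.27 and 2.04 CPM at 400 mm3, and 2.93, 2.27, 2.49 and 2.63 CPM at 800 mm3. The groups did not overlap in culture or at any tumor size. Its log2 fold change was 1.32 (SE 0.27, adjusted p = 0.00031) in culture, 0.98 (SE 0.25, adjusted p = 0.01) at 100 mm3, which missed the limit on the fold, 1.25 (SE 0.2, adjusted p = 0.0011) at 400 mm3 and 1.42 (SE 0.2, adjusted p = 0.00018) at 800 mm3. At 100 mm3 it passed without CT-26 replicate 3 (1.21) or Colon 26 replicate 2 (1.12).

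Hoxb6, which lies beside Hoxb5, held 2.25, 1.79 and 2.67 CPM in the 3 CT-26 cultures and 3.44, 4.24 and 2.67 CPM in the 3 Colon 26 cultures. CT-26 tumors carried Hoxb6 at 4.07, 2.82, 3.92 and 3.2 CPM at 100 mm3, 2.6, 3.03, 3.37 and 3.36 CPM at 400 mm3, and 3.31, 3.72, 3.32 and 3.49 CPM at 800 mm3. Hoxb6 in Colon 26 tumors was at 5.85, 4.98, 5.67 and 5.37 CPM at 100 mm3, 6.77, 5.02, 4.76 and 5.27 CPM at 400 mm3, and 4.96, 5.52, 4.98 and 5.67 CPM at 800 mm3. Tumors of the lines lay apart at each size, with the Colon 26 tumors higher. All 4 differences passed the adjusted p and none reached a log2 fold change of 1, at 0.59 (SE 0.2, adjusted p = 0.012) in culture, 0.64 (SE 0.15, adjusted p = 0.0069), 0.83 (SE 0.17, adjusted p = 0.0044) and 0.6 (SE 0.13, adjusted p = 0.0028) in tumors. Hoxb3, a hindbrain gene, was called in culture at 1.68 (SE 0.27, adjusted p = 2.7e-05) and at 100 mm3 at 1.06 (SE 0.29, adjusted p = 0.015), a call that ended without CT-26 replicate 3 (1.0) or 4 (0.85) or Colon 26 replicate 3 (0.99). Its values at 400 and 800 mm3 were 0.58 (SE 0.22, adjusted p = 0.059) and 0.55 (SE 0.32, adjusted p = 0.18).

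Hoxc4, which is also active in lymphocytes, held 1.98, 1.94 and 2.22 CPM in the 3 CT-26 cultures and 4.66, 4.79 and 4.6 CPM in the 3 Colon 26 cultures. CT-26 tumors carried Hoxc4 at 1.78, 1.69, 2.3 and 1.79 CPM at 100 mm3, 4.26, 2.69, 2.98 and 2.3 CPM at 400 mm3, and 2.3, 2.67, 2.15 and 1.85 CPM at 800 mm3. Hoxc4 in Colon 26 tumors was at 5.19, 4.38, 3.47 and 3.27 CPM at 100 mm3, 4.99, 4.33, 4.52 and 5.13 CPM at 400 mm3, and 4.42, 3.6, 3.8 and 4.86 CPM at 800 mm3. All groups of Colon 26 lay above the CT-26 group of the same setting. Its log2 fold change was 1.16 (SE 0.13, adjusted p = 7.2e-07) in culture, 1.1 (SE 0.19, adjusted p = 0.0014) at 100 mm3, 0.64 (SE 0.2, adjusted p = 0.031) at 400 mm3 and 0.88 (SE 0.17, adjusted p = 0.0016) at 800 mm3, so that it was called in culture and at 100 mm3. Without Colon 26 replicate 1 the value at 100 mm3 was 0.98, and with the cultures thinned to equal depth the value in culture was 0.97. Hoxc5, its neighbour, held 1.8, 1.04 and 1.73 CPM in the 3 CT-26 cultures and 2.26, 3.08 and 1.77 CPM in the 3 Colon 26 cultures, and its difference of 0.61 (SE 0.25, adjusted p = 0.033) did not reach the limit.

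Hoxd3, a gene of the upper neck, went the other way and held 1.13, 0.821 and 0.781 CPM in the 3 CT-26 cultures and 0.113, 0.176 and 0.36 CPM in the 3 Colon 26 cultures. CT-26 tumors carried Hoxd3 at 0.083, 0.364, 0.653 and 0.378 CPM at 100 mm3, 0.67, 0.585, 0.0 and 0.0851 CPM at 400 mm3, and 0.26, 0.291, 0.0 and 0.247 CPM at 800 mm3. Hoxd3 in Colon 26 tumors was at 0.0653, 0.135, 0.112 and 0.0808 CPM at 100 mm3, 0.0986, 0.116, 0.154 and 0.146 CPM at 400 mm3, and 0.129, 0.118, 0.0655 and 0.0731 CPM at 800 mm3. The cultures did not overlap, and CT-26 tumors spread from no count to values near the cultures. Hoxd3 was lower in Colon 26 cultures (log2 fold change -2.06, SE 0.38, adjusted p = 0.00011) and too low to be tested between tumors with the filter on low counts. At 100 mm3 alone it was called without the filter, by DESeq2 and with all 30 libraries fitted together. It was also called there without CT-26 replicate 1 or Colon 26 replicate 3 or 4. The means there were 0.0983 CPM in Colon 26 and 0.37 CPM in CT-26, with overlap. It shares exons with Hoxd4, and its counts were not whole numbers before rounding in any of the 28 libraries that had one.

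In tumors, Colon 26 was lower than CT-26 in Hoxa9, Hoxa10 and Hoxc6 at every size, and higher in Hoxb8 and Hoxc8. At 100 mm3, 10 of 27 members tested were called, 7 higher and 3 lower in Colon 26, against 13.2% of all genes, 6.17% higher and 7.06% lower. At 400 mm3, 9 of 25 were called, 5 higher and 4 lower, against 14.3% of all genes, 6.48% higher and 7.79% lower. At 800 mm3, 10 of 26 were called, 6 higher and 4 lower, against 14.1% of all genes, 6.5% higher and 7.62% lower. The median log2 fold change of the members tested was 0.56, 0.44 and 0.41 at the 3 sizes, where that of all genes lay between -0.01 and 0.03. Of the 21 members tested in culture and at all sizes, 6 were higher by adjusted p in all 4 comparisons (Hoxb4, Hoxb5, Hoxb6, Hoxb8, Hoxc4 and Hoxc8) and 4 were lower (Hoxa5, Hoxa9, Hoxa10 and Hoxc6). Over the 4 comparisons 19 members were called at least once, and 0 were called in both directions. Shares of all genes for these joint counts are not given, so the counts are not read as particular to Hox genes. By edgeR's test, 18 of 24 members and 11511 of 14334 genes had an unadjusted p under 0.05 in culture. In tumors of rising size these were 17 of 27 and 8543 of 15406, 18 of 25 and 7892 of 15241, and 19 of 26 and 8996 of 15521.

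**Figure D3:**
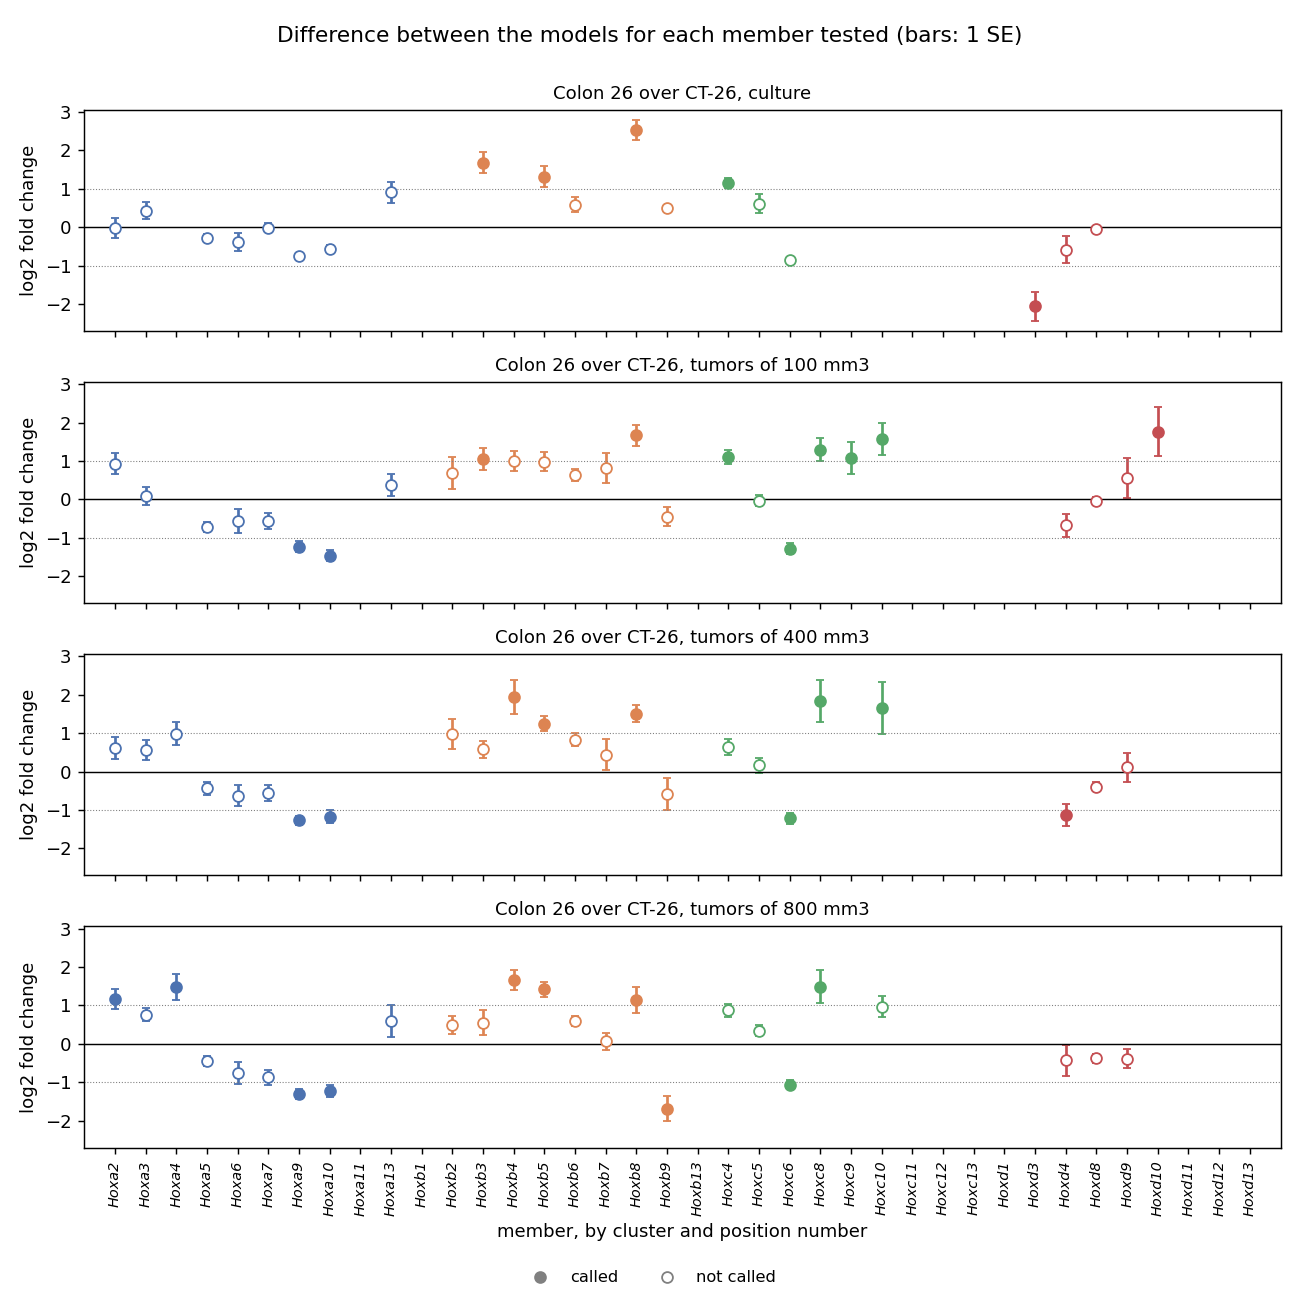
Log2 fold change of Colon 26 over CT-26 with 1 SE (vertical axes) for members tested and reported, by cluster and position, in culture and at the 3 tumor sizes. Filled points were called, dotted lines mark an absolute log2 fold change of 1, and members at the floor in 1 of the groups are not drawn. Hoxa9, Hoxa10 and Hoxc6 are filled below -1 at all tumor sizes, and Hoxb8 is filled above 1 in all 4 panels.

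Hoxa9 held 16.5, 17.9 and 17.8 CPM in the 3 CT-26 cultures and 11, 10.1 and 11 CPM in the 3 Colon 26 cultures. CT-26 tumors carried Hoxa9 at 16.2, 13, 15.2 and 11.7 CPM at 100 mm3, 18.3, 17.1, 18.1 and 17.7 CPM at 400 mm3, and 13.4, 15.1, 17.1 and 17.9 CPM at 800 mm3. Hoxa9 in Colon 26 tumors was at 5.91, 5.14, 6.82 and 6.06 CPM at 100 mm3, 6.24, 7.07, 7.25 and 8.8 CPM at 400 mm3, and 7.25, 6.31, 5.86 and 6.33 CPM at 800 mm3. The lines did not overlap in any setting, and the gap was wider at 100 mm3 than in culture. Its log2 fold change was -0.74 (SE 0.06, adjusted p = 1.5e-08) in culture, below the limit on the fold, and -1.23 (SE 0.14, adjusted p = 0.00011), -1.27 (SE 0.11, adjusted p = 5.2e-05) and -1.31 (SE 0.12, adjusted p = 1.1e-05) at 100, 400 and 800 mm3. Over culture, tumors of 100 mm3 changed by -0.32 (SE 0.12, adjusted p = 0.042) in CT-26 and by -0.76 (SE 0.1, adjusted p = 0.00013) in Colon 26, with a difference between these changes of -0.48 (SE 0.16, adjusted p = 0.027).

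Hoxa10, a gene of the lumbar region and the uterus, held 8.24, 8.25 and 7.6 CPM in the 3 CT-26 cultures and 5.05, 6.08 and 5.6 CPM in the 3 Colon 26 cultures. CT-26 tumors carried Hoxa10 at 10.4, 8.32, 8.72 and 8.66 CPM at 100 mm3, 8.4, 8.95, 10.1 and 10.6 CPM at 400 mm3, and 8.62, 8.9, 8.86 and 8.52 CPM at 800 mm3. Hoxa10 in Colon 26 tumors was at 3.98, 2.92, 2.98 and 3.15 CPM at 100 mm3, 2.99, 5.18, 4.64 and 4.11 CPM at 400 mm3, and 5.06, 3.16, 3.14 and 3.73 CPM at 800 mm3. As for Hoxa9, Colon 26 lay below CT-26 without overlap in culture and at each size. Its log2 fold change was -0.56 (SE 0.1, adjusted p = 6.1e-05) in culture and -1.47 (SE 0.14, adjusted p = 4e-05), -1.17 (SE 0.17, adjusted p = 0.00072) and -1.22 (SE 0.16, adjusted p = 0.00012) in tumors. The change from culture to tumors of 100 mm3 was 0.16 (SE 0.11, adjusted p = 0.25) in CT-26 and -0.69 (SE 0.14, adjusted p = 0.0013) in Colon 26, and these changes differed by -0.9 (SE 0.17, adjusted p = 0.00076), past the adjusted p and short of the limit on the fold.

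Hoxc6 held 16.1, 17.5 and 18.0 CPM in the 3 CT-26 cultures and 9.6, 10.9 and 8.69 CPM in the 3 Colon 26 cultures. CT-26 tumors carried Hoxc6 at 20.1, 18.0, 16.2 and 13.3 CPM at 100 mm3, 19.7, 15.4, 17.6 and 14.1 CPM at 400 mm3, and 18.9, 18.6, 16.0 and 15.6 CPM at 800 mm3. Hoxc6 in Colon 26 tumors was at 7.35, 7.79, 6.34 and 6.46 CPM at 100 mm3, 8.25, 7.22, 5.93 and 7.13 CPM at 400 mm3, and 9.28, 8.08, 6.87 and 9.32 CPM at 800 mm3. Colon 26 lay below CT-26 without overlap throughout. The log2 fold change was -0.86 (SE 0.08, adjusted p = 5.2e-08) in culture and -1.28 (SE 0.14, adjusted p = 9.9e-05), -1.22 (SE 0.15, adjusted p = 0.00026) and -1.06 (SE 0.12, adjusted p = 5.6e-05) in tumors, and at 800 mm3 the call ended without CT-26 replicate 1 (-0.99) or Colon 26 replicate 3 (-0.96).

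Hoxa5, a regulator of lung and diaphragm formation, was lower in Colon 26 by less than the limit on the fold in all 4 settings. It held 5.27, 5.22 and 5.59 CPM in the 3 CT-26 cultures and 4.55, 4.89 and 4.09 CPM in the 3 Colon 26 cultures. CT-26 tumors carried Hoxa5 at 6.68, 5.7, 6.8 and 7.46 CPM at 100 mm3, 7.73, 6.96, 5.46 and 5.96 CPM at 400 mm3, and 5.61, 6.69, 6.35 and 6.05 CPM at 800 mm3. Hoxa5 in Colon 26 tumors was at 4.47, 4.03, 3.77 and 3.92 CPM at 100 mm3, 4.4, 5.8, 4.21 and 4.73 CPM at 400 mm3, and 4.93, 4.66, 4.06 and 4.57 CPM at 800 mm3. Groups overlapped at 400 mm3 and nowhere else. The log2 fold changes were -0.28 (SE 0.11, adjusted p = 0.028) in culture and -0.72 (SE 0.12, adjusted p = 0.0012), -0.44 (SE 0.16, adjusted p = 0.047) and -0.45 (SE 0.12, adjusted p = 0.01) in tumors of rising size.

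Hoxd8 varied little between the groups. It held 10.1, 12.1 and 11.3 CPM in the 3 CT-26 cultures and 11.4, 10.3 and 11.7 CPM in the 3 Colon 26 cultures. CT-26 tumors carried Hoxd8 at 12.4, 10.8, 13.9 and 11.7 CPM at 100 mm3, 16.6, 13.3, 16.1 and 14.6 CPM at 400 mm3, and 11.4, 13, 12.4 and 15.3 CPM at 800 mm3. Hoxd8 in Colon 26 tumors was at 12.4, 11.2, 12.8 and 10.9 CPM at 100 mm3, 12.1, 12.7, 9.52 and 11.7 CPM at 400 mm3, and 9.93, 10.3, 9.2 and 11 CPM at 800 mm3. The 30 libraries lay between 9.20 and 16.6 CPM. The difference between the lines was -0.05 (SE 0.07, adjusted p = 0.55) in culture and -0.05 (SE 0.1, adjusted p = 0.71) at 100 mm3, and Colon 26 was lower at 400 mm3 (-0.39 (SE 0.12, adjusted p = 0.029)) and 800 mm3 (-0.38 (SE 0.11, adjusted p = 0.016)) by less than the limit on the fold.

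The other members called between tumors were lower or less stable. Hoxa4 was higher in Colon 26 at 800 mm3 (log2 fold change 1.48, SE 0.34, adjusted p = 0.0047), with 0.393 to 0.612 CPM against 0.0926 to 0.262. It stood at 0.98 (SE 0.3, adjusted p = 0.027) at 400 mm3, where it passed without CT-26 replicate 4 or Colon 26 replicate 2, 3 or 4 (1.01 to 1.17). Hoxa2 was higher at 800 mm3 (log2 fold change 1.17, SE 0.26, adjusted p = 0.0037), a value of 0.97 without CT-26 replicate 4. At 100 mm3 (0.93 (SE 0.27, adjusted p = 0.019)) it passed without CT-26 replicate 4 (1.23) or Colon 26 replicate 2 (1.03). Hoxb9 was lower in Colon 26 at 800 mm3 (log2 fold change -1.69, SE 0.32, adjusted p = 0.0013) and was not called at 100 mm3 (-0.45 (SE 0.25, adjusted p = 0.17)) or 400 mm3 (-0.58 (SE 0.42, adjusted p = 0.29)). Hoxc10 was higher at 100 mm3 (log2 fold change 1.57, SE 0.41, adjusted p = 0.011) and 400 mm3 (log2 fold change 1.66, SE 0.67, adjusted p = 0.072), and the call at 400 mm3 ended without CT-26 replicate 1 (adjusted p = 0.16) or 3 (0.14) or Colon 26 replicate 1 (0.19) or 4 (0.11). At 800 mm3 it stood at 0.97 (SE 0.27, adjusted p = 0.013) and passed without CT-26 replicate 4 or Colon 26 replicate 1 or 4 (1.01 to 1.12). Hoxc9 and Hoxd10 were called higher at 100 mm3 at 1.08 (SE 0.42, adjusted p = 0.063) and 1.76 (SE 0.64, adjusted p = 0.048), with overlap of the groups. Hoxc9 lost the call in DESeq2 and without each of 5 of the 8 tumors, at adjusted p of 0.12 to 0.17. For Hoxd10 the call ended without CT-26 replicate 4 or Colon 26 replicate 1 or 3, at adjusted p of 0.10 to 0.11. Hoxd4, a gene of the neck, was lower at 400 mm3 (log2 fold change -1.13, SE 0.28, adjusted p = 0.011), at -0.95 without Colon 26 replicate 3. Among members never called between the lines, Hoxa7 was lower by adjusted p in tumors of all 3 sizes, at -0.55 to -0.87, and Hoxa3, Hoxa6, Hoxa13, Hoxb2 and Hoxc5 passed it in 1 or 2 of the comparisons. Hoxb2 was called at 400 mm3 without CT-26 replicate 4 (1.31) or Colon 26 replicate 2 (1.18), and without CT-26 replicate 3 at 100 mm3 Hoxb7 and Hoxd9 were called as well.

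From culture to tumor, the change that stood out in both lines was a fall of Hoxb9, while Hoxb6, Hoxb7 and Hoxb8 beside it were not called lower. Hoxb9, a gene of the thoracic region, held 7.12, 7.31 and 6.82 CPM in the 3 CT-26 cultures and 10.2, 9.4 and 11.1 CPM in the 3 Colon 26 cultures. CT-26 tumors carried Hoxb9 at 0.789, 0.894, 1.08 and 0.86 CPM at 100 mm3, 0.907, 0.482, 1.66 and 1.36 CPM at 400 mm3, and 1.41, 1.08, 2.35 and 2.04 CPM at 800 mm3. Hoxb9 in Colon 26 tumors was at 0.914, 0.568, 0.447 and 0.727 CPM at 100 mm3, 0.394, 1.0, 0.891 and 0.655 CPM at 400 mm3, and 0.709, 0.59, 0.491 and 0.329 CPM at 800 mm3. The lowest culture, at 6.82 CPM, lay well above the highest of the 24 tumors, at 2.35 CPM. Hoxb9 fell by 2.97 on the log2 scale in CT-26 (SE 0.16, adjusted p = 2.3e-06) and by 3.86 in Colon 26 (SE 0.19, adjusted p = 2e-07) between cultures and tumors of 100 mm3, which is 7.83-fold and 14.5-fold lower. Among its neighbours, Hoxb8 was lower in Colon 26 tumors by less than the limit on the fold (-0.7 (SE 0.21, adjusted p = 0.015)) and Hoxb6 higher (0.74 (SE 0.16, adjusted p = 0.0023)). The falls differed between the lines by -0.93 (SE 0.26, adjusted p = 0.0088), past the adjusted p and short of the limit on the fold, and without Colon 26 replicate 1 at 100 mm3 the difference reached -1.10.

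**Figure D4:**
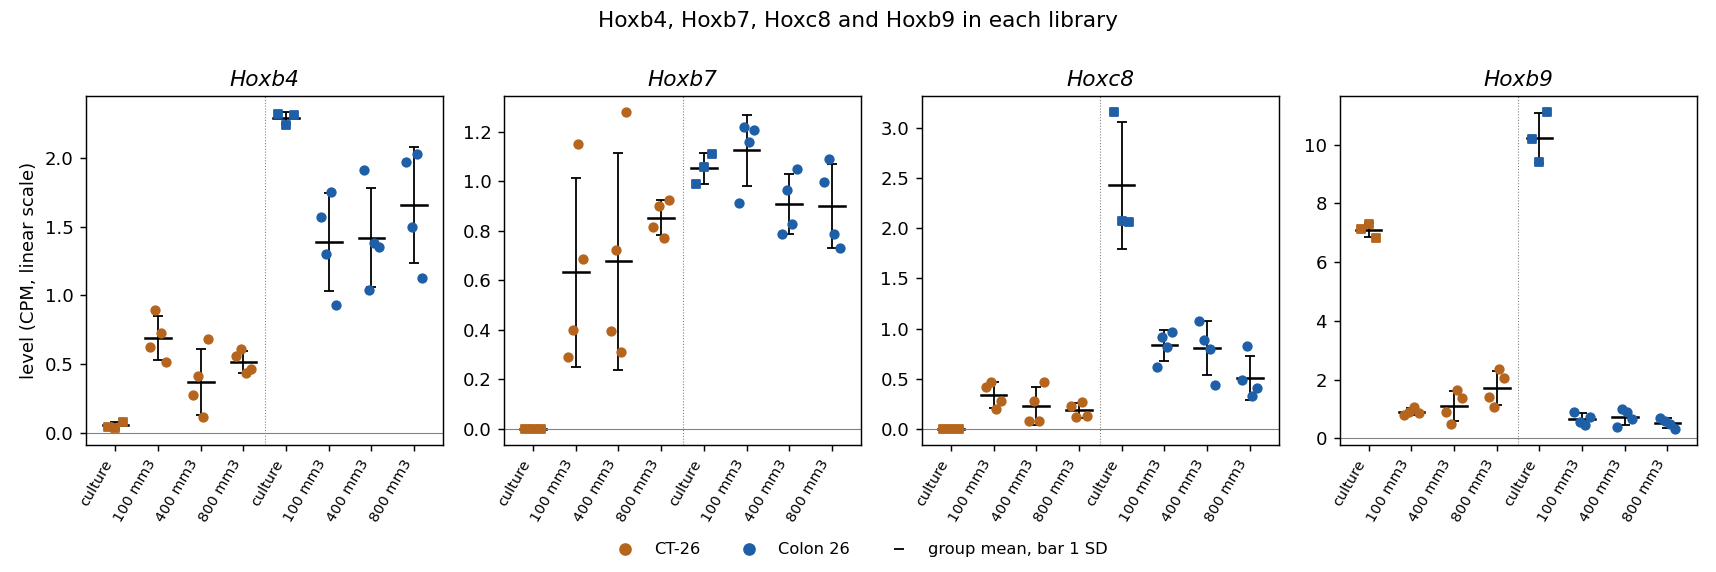
Levels of Hoxb4, Hoxb7, Hoxc8 and Hoxb9 (CPM on linear axes) in the 8 groups, with squares for cultures, circles for tumors, and the group mean with 1 SD. Hoxb4, Hoxb7 and Hoxc8 lie at 0 to 0.0822 CPM in CT-26 cultures and at 0.988 to 3.16 CPM in Colon 26 cultures, and Hoxb9 lies at 6.82 to 11.1 CPM in the 6 cultures and at or below 2.35 CPM in all tumors.

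Of 21 members tested in CT-26, 6 were called between tumors of 100 mm3 and cultures, against 32.2% of all genes tested. Hoxb4, Hoxb7, Hoxc5 and Hoxd4 were higher in tumors, where 22.2% of all genes were called higher, and Hoxb9 and Hoxd3 were lower, where 10.1% of all genes were called lower. In Colon 26, 11 of 29 members were called, against 26.9% of all genes, as Hoxa4, Hoxb2, Hoxc9, Hoxc10, Hoxd4, Hoxd9 and Hoxd10 were higher (20.8% of all genes) and Hoxa11, Hoxa13, Hoxb9 and Hoxc8 were lower (6.12% of all genes). The count in CT-26 depended on the filter for low counts, since Hoxb2, Hoxc8, Hoxc10 and Hoxd9 among others were not tested, and 13 members were called without a filter, 12 by DESeq2, and 9, 9 and 10 without CT-26 culture replicates 1, 2 and 3. It was 5, 4, 4 and 5 without CT-26 tumor replicates 1, 2, 3 and 4. The median log2 fold change of the members tested was 0.12 in CT-26 and 0.17 in Colon 26, and that of all genes was 0.06 and 0.05.

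Hoxb4 and Hoxb7, at the floor in CT-26 cultures, were at least 5.59-fold and 5.12-fold higher in CT-26 tumors of 100 mm3 (adjusted p = 0.00016 and 0.0027). Hoxb7 was no longer tested without CT-26 tumor replicate 2, 3 or 4. Of the members not tested there, Hoxb2, Hoxc8, Hoxc9, Hoxc10 and Hoxd9 were above the cultures without overlap, with means of 3.9, 2.73, 1.83, 2.83 and 5.85 times the level of 3 counts. In Colon 26, whose cultures already held these Hoxb genes, Hoxb4 was -0.64 (SE 0.21, adjusted p = 0.019) and Hoxb7 0.18 (SE 0.19, adjusted p = 0.41) in tumors over cultures. Hoxc8 fell there by 1.46 on the log2 scale (SE 0.24, adjusted p = 0.00043). The change from culture to tumor differed between the lines for 4 of 30 members tested, against 17.6% of all genes. These were Hoxb4 (adjusted p = 6.3e-06), Hoxb7 (adjusted p = 0.00027) and Hoxc8 (adjusted p = 2.1e-05), which changed more upward in CT-26, and Hoxc9 (adjusted p = 0.055), which changed more upward in Colon 26. The sizes of these differences rest on groups at the floor and are not given. Hoxc9 lost this call without CT-26 culture replicate 1 (adjusted p = 0.15) or 2 (0.14). Hoxa2 (0.96 (SE 0.38, adjusted p = 0.056)) gained it without CT-26 tumor replicate 4, Colon 26 tumor replicate 2, CT-26 culture replicate 1 or Colon 26 culture replicate 2 or 3 (1.04 to 1.25), and Hoxb8 without CT-26 tumor replicate 2 (-1.06).

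Hoxd4 rose in both lines. It held 0.315, 0.746 and 0.658 CPM in the 3 CT-26 cultures and 0.282, 0.479 and 0.411 CPM in the 3 Colon 26 cultures. CT-26 tumors carried Hoxd4 at 1.95, 1.36, 1.96 and 2.17 CPM at 100 mm3, 1.42, 2.1, 2.32 and 1.57 CPM at 400 mm3, and 0.743, 2.21, 2.82 and 1.95 CPM at 800 mm3. Hoxd4 in Colon 26 tumors was at 1.24, 1.76, 0.932 and 0.687 CPM at 100 mm3, 1.08, 0.811, 0.522 and 0.946 CPM at 400 mm3, and 2.13, 1.62, 1.28 and 0.731 CPM at 800 mm3. Cultures and tumors of 100 mm3 did not overlap in either line, and the log2 fold change was 1.67 (SE 0.31, adjusted p = 0.0015) in CT-26 and 1.65 (SE 0.36, adjusted p = 0.0027) in Colon 26. Hoxd3, with which it shares exons, was lower in CT-26 tumors (log2 fold change -1.28, SE 0.49, adjusted p = 0.044), a call that ended without CT-26 tumor replicate 1 (-0.98) or CT-26 culture replicate 1 (adjusted p = 0.15). Hoxc5 was higher in CT-26 tumors (log2 fold change 1.01, SE 0.24, adjusted p = 0.0056) and stood at 0.43 (SE 0.21, adjusted p = 0.086) in Colon 26. Its tumors held 3.07, 3.11, 3.46 and 2.72 CPM at 100 mm3, 3.75, 3.06, 3.17 and 2.72 CPM at 400 mm3 and 2.9, 2.91, 2.89 and 2.62 CPM at 800 mm3 in CT-26, and 2.74, 3.46, 3.21 and 2.67, 4.7, 3.13, 2.98 and 3.31, and 3.64, 3.25, 3.4 and 4.13 CPM in Colon 26. The CT-26 call ended without CT-26 tumor replicate 2 (0.99) or 3 (0.96) or CT-26 culture replicate 2 (0.76).

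In Colon 26, members at positions 11 and 13 of the Hoxa cluster fell in tumors. Hoxa11 fell by 2.17 on the log2 scale (SE 0.34, adjusted p = 0.00033) and Hoxa13, a gene of the hindgut and the digits, by 1.30 (SE 0.24, adjusted p = 0.00095). Hoxa13 held 0.36, 0.522 and 0.617 CPM in the 3 CT-26 cultures and 0.988, 0.983 and 0.951 CPM in the 3 Colon 26 cultures, against 0.261 to 0.485 CPM in Colon 26 tumors of 100 mm3. Hoxa4 was called higher in tumors (log2 fold change 1.1, SE 0.47, adjusted p = 0.059) with overlap. It lost the call in DESeq2 and without Colon 26 culture replicate 1 or 3 (adjusted p = 0.16 and 0.19), and it was not tested when any tumor was left out. Hoxb2, a hindbrain gene, was higher in tumors (log2 fold change 3.87, SE 0.46, adjusted p = 5.5e-05), from 0.0252 to 0.103 CPM in cultures to 0.595 to 0.98 CPM.

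Hoxc9, Hoxc10, Hoxd9 and Hoxd10, neighbours at positions 9 and 10 of the Hoxc and Hoxd clusters, were at the floor in the 6 cultures and above it in every tumor group of both lines. Hoxd9, a gene of the lumbar region and the upper limb bones, held 0.0, 0.0373 and 0.0 CPM in the 3 CT-26 cultures and 0.0, 0.0 and 0.0 CPM in the 3 Colon 26 cultures. CT-26 tumors carried Hoxd9 at 0.249, 0.364, 1.69 and 0.585 CPM at 100 mm3, 0.552, 0.654, 0.271 and 0.809 CPM at 400 mm3, and 0.632, 0.669, 0.873 and 0.865 CPM at 800 mm3. Hoxd9 in Colon 26 tumors was at 1.44, 1.06, 0.857 and 0.929 CPM at 100 mm3, 0.493, 0.502, 0.522 and 0.946 CPM at 400 mm3, and 0.645, 0.649, 0.622 and 0.402 CPM at 800 mm3. Every tumor stood above every culture, and the tumors of the lines overlapped at each size. Hoxd9 was at least 13.5-fold higher in Colon 26 tumors of 100 mm3 than in cultures (adjusted p = 2e-05). With no count in Colon 26 cultures, it was tested only through its tumor counts, so this adjusted p restates the pattern by which it was picked. Between the lines Hoxd9 stood at 0.56 (SE 0.53, adjusted p = 0.41), 0.11 (SE 0.37, adjusted p = 0.83) and -0.39 (SE 0.25, adjusted p = 0.2) by size.

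Hoxd10, a gene of lumbar motor neurons and the hindlimb, had no count in any culture. CT-26 tumors carried Hoxd10 at 0.0, 0.232, 0.384 and 0.0688 CPM at 100 mm3, 0.118, 0.344, 0.232 and 0.255 CPM at 400 mm3, and 0.111, 0.378, 0.336 and 0.278 CPM at 800 mm3. Hoxd10 in Colon 26 tumors was at 0.718, 0.352, 0.783 and 0.566 CPM at 100 mm3, 0.131, 0.657, 0.369 and 0.364 CPM at 400 mm3, and 0.0967, 0.148, 0.164 and 0.183 CPM at 800 mm3. The 4 Colon 26 tumors of 800 mm3 lay below the 4 of 100 mm3 without overlap. Hoxd10 was at least 7.64-fold higher in Colon 26 tumors of 100 mm3 than in cultures (adjusted p = 0.00014), and it too was tested only through its tumor counts.

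Hoxc9, which sets thoracic motor neurons apart, held 0.0451, 0.0373 and 0.0 CPM in CT-26 cultures and no count in Colon 26 cultures. CT-26 tumors carried Hoxc9 at 0.166, 0.133, 0.192 and 0.413 CPM at 100 mm3, 0.0, 0.344, 0.0387 and 0.213 CPM at 400 mm3, and 0.223, 0.0291, 0.101 and 0.0926 CPM at 800 mm3. Hoxc9 in Colon 26 tumors was at 0.718, 0.514, 0.41 and 0.283 CPM at 100 mm3, 0.756, 0.116, 0.307 and 0.182 CPM at 400 mm3, and 0.193, 0.384, 0.164 and 0.402 CPM at 800 mm3. The spread was wide in both lines, and a CT-26 tumor of 400 mm3 had no count. Hoxc9 and Hoxc10 were at least 6.08-fold and 13-fold higher in Colon 26 tumors of 100 mm3 than in cultures (adjusted p = 0.00022 and 2.7e-05). Both had no count in Colon 26 cultures and were tested only through their tumor counts, so these adjusted p restate the pattern by which they were picked. Hoxc9 was not tested without Colon 26 tumor replicate 2. Hoxc10, a hindlimb gene that overlaps Hoxc5, ran from 0.0774 to 0.553 CPM over the 12 CT-26 tumors, with a median of 0.375, and from 0.502 to 1.71 CPM over the 12 Colon 26 tumors, with a median of 0.836.

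**Figure D5:**
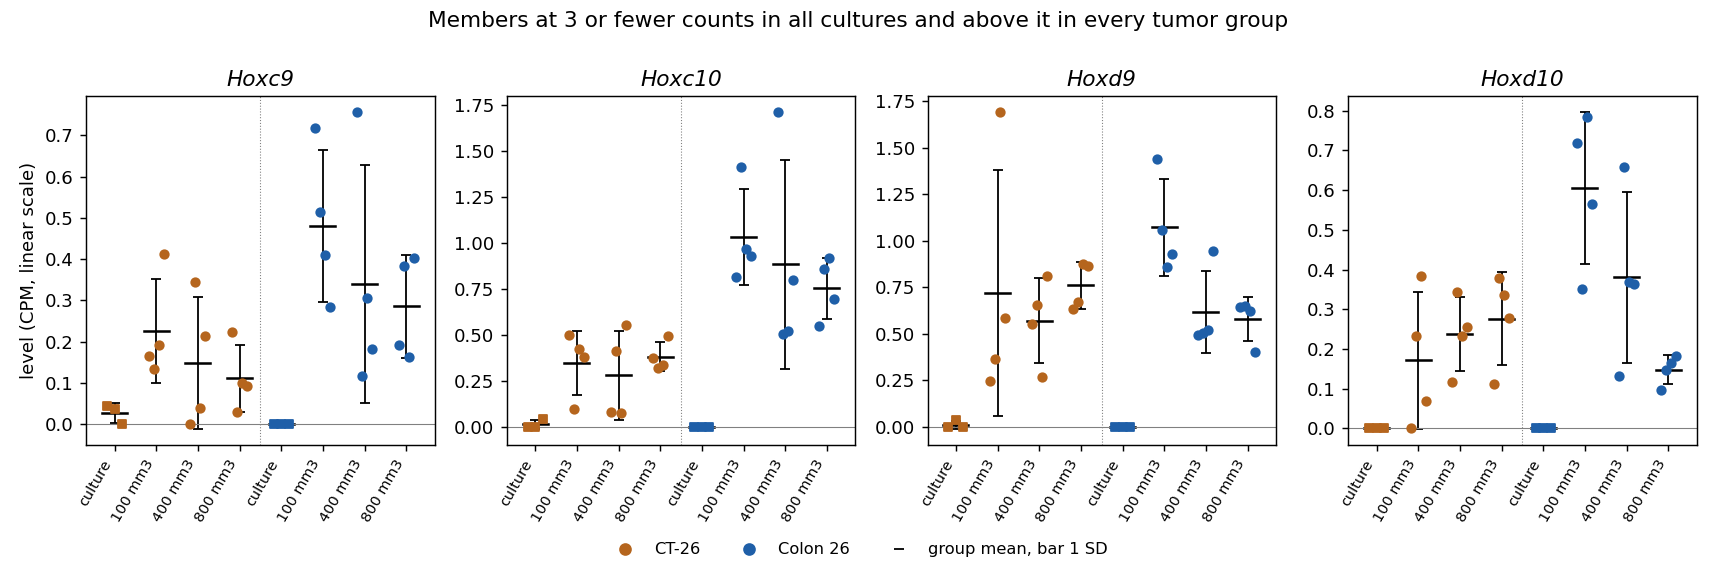
Levels of Hoxc9, Hoxc10, Hoxd9 and Hoxd10 (CPM on linear axes) in the 8 groups, with squares for cultures, circles for tumors, and the group mean with 1 SD. Cultures lie at or below 0.0451 CPM, tumors reach 0.756, 1.71, 1.69 and 0.783 CPM, and Hoxd10 of Colon 26 drops from 0.352 to 0.783 CPM at 100 mm3 to 0.0967 to 0.183 CPM at 800 mm3.

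The 250 bases before Hoxd9 and Hoxd10 are shown because these neighbours had counts in tumors and almost none in cultures, with capitals for the same 5 motifs and from the same RefSeq table (GRCm38.p6), which did not hold Hoxc9 or Hoxc10.
Hoxd9 (chr2:74697513-74697762, plus strand): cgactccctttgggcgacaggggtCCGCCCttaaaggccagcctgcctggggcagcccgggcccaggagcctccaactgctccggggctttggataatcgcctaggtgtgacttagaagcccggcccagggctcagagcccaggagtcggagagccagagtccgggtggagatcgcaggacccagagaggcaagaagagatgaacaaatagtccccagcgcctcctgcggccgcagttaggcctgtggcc
Hoxd10 (chr2:74691641-74691890, plus strand): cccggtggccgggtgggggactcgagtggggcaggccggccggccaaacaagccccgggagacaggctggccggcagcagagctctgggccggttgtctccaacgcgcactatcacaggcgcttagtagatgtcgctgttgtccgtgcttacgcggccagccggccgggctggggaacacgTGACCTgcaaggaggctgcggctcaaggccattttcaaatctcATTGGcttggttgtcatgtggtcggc
The stretch before Hoxd9 held 13 CpG and a match to the GC box on the minus strand. The stretch before Hoxd10 held 20 CpG, a number that 17.9% of all promoters reached, and matches to the CCAAT box and the nuclear receptor letters on the minus strand. Over the 24 promoters listed for the 22 members the number of CpG ran from 2 to 35 with a median of 12.5, against a median of 6.0 over all promoters.

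Summed markers of leukocytes, endothelium, fibroblasts, smooth muscle and pericytes, skeletal muscle and adipocytes were higher in every tumor than in any culture, and their part in these results was not tested. All 7 leukocyte, 5 endothelial, 7 fibroblast, 4 smooth muscle and pericyte and 3 adipocyte markers were above the floor in every tumor group. Summed fibroblast markers ran from 263 to 623 CPM in tumors and from 57.4 to 114 CPM in cultures, where Dpt, Lum and Thy1 were at the floor in both lines. Pdgfra and Pdgfrb made up most of the culture sums, so these sums do not stand for host cells alone. Their means were 20.9 and 33.4 CPM in CT-26 cultures and 36.3 and 75.0 CPM in Colon 26 cultures. In tumors of 100 mm3 their means were 39.4 and 115 CPM in CT-26 and 99.5 and 96.5 CPM in Colon 26. Leukocyte markers summed to 257 to 1140 CPM in tumors, to 58.4 to 67.9 CPM in CT-26 cultures and to 3.62 to 4.54 CPM in Colon 26 cultures, where Cd3e, Adgre1 and Tyrobp were at 0. Cd68 made up most of the sum in CT-26 cultures, with a mean of 60.8 CPM there and means of 71.6 to 94.4 CPM in CT-26 tumors, and the fibroblast marker Pi16 had a mean of 2.05 CPM in CT-26 cultures and means of 2.51 to 5.92 CPM in CT-26 tumors. Endothelial sums were 57.7 to 192 CPM in tumors and 0.126 to 0.597 CPM in cultures, smooth muscle and pericyte sums 27.4 to 298 and 1.44 to 6.62 CPM, and adipocyte sums 5.91 to 54.5 and 0.329 to 3.08 CPM. Keratinocyte sums were not higher in every tumor and stood at 3.21 to 6.34 CPM in CT-26 tumors, but for 81.0 CPM in replicate 4 at 800 mm3, against 3.83 to 5.04 CPM in cultures, and 4.21 to 6.80 CPM in Colon 26 tumors against 9.98 to 10.4 CPM in cultures. Colon epithelium sums were 117 to 256 CPM in CT-26 tumors against 44.1 to 45.3 CPM in cultures, and 12.3 to 42.5 CPM in Colon 26 tumors against 15.3 to 15.8 CPM. Krt20 made up most of the sums in CT-26 tumors, with group means of 135 to 172 CPM against 24.7 CPM in cultures. Group means of Krt18 were 9.39 to 13.7 CPM in CT-26 tumors against 15.7 CPM in cultures.

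Skeletal muscle markers differed most between tumors, from 0.402 to 2420 CPM, where the cultures held 0.0771 to 0.373 CPM with Tnnt3 and Myog at 0. Colon 26 replicate 1 at 400 mm3, with 2420 CPM of these markers, also held the highest Hoxc9 (0.756 CPM) and Hoxc10 (1.71 CPM) of all tumors, and the lowest Hoxd10 (0.131 CPM) of its group. Without this tumor 8 members were called between the lines at 400 mm3, and without the CT-26 tumor high in keratinocyte markers 10 were called at 800 mm3. In CT-26 tumors of 100 mm3, replicate 1 held 0.747 CPM of the skeletal muscle markers, 0.166 CPM Hoxc9, 0.498 CPM Hoxc10 and 0.249 CPM Hoxd9, with no count of Hoxd10. Replicate 4 of that group held 493 CPM of these markers, 0.413 CPM Hoxc9, 0.378 CPM Hoxc10, 0.585 CPM Hoxd9 and 0.0688 CPM Hoxd10.

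Among Hox genes, as among all genes, few were called between tumors of 100 and 800 mm3, the sizes compared. Between CT-26 tumors of 800 and 100 mm3, edgeR called 0 of 23 members tested and 0 of all genes (0% of 15298), with 1 member, Hoxb9, and 1610 genes at an unadjusted p under 0.05, and DESeq2 called 0 members and 39 genes. The value of Hoxb9 was 0.92 (SE 0.28, adjusted p = 0.42), with the highest tumor of 100 mm3 and the lowest of 800 mm3 both at 1.08 CPM. In Colon 26, 1 of 28 members was called, against 1.33% of all genes. It was Hoxd10, which fell by 2.01 on the log2 scale (SE 0.35, adjusted p = 0.023) from 100 to 800 mm3. Skeletal muscle markers went from 117 to 1210 CPM at 100 mm3 to 0.402 to 1.03 CPM at 800 mm3, where Myh4, Myh1 and Myog were at the floor, and their part in the result was not tested. At 400 mm3, Colon 26 replicates 2 to 4 held 0.909 to 4.85 CPM of these markers with Hoxd10 at 0.364 to 0.657 CPM. Hoxd9 moved the same way without overlap, by -0.89 (SE 0.24, adjusted p = 0.084), past the adjusted p and not the limit on the fold. Without Colon 26 replicate 2 at 800 mm3, Hoxc8 was called as well, so that 2 members passed. The change with size differed between the lines for 0 of 28 members in edgeR, against 0.0308% of all genes called, and for 1, Hoxd10, in DESeq2. In edgeR, 5 of the 28 members and 2031 of all 16238 genes tested had an unadjusted p under 0.05.

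Genes that act with or on Hox genes were followed as lists, and no list was tested as a set. Of all genes tested, 22.9% were called between cultures and 13.2%, 14.3% and 14.1% between tumors of 100, 400 and 800 mm3. From culture to tumors of 100 mm3 the share was 32.2% in CT-26 and 26.9% in Colon 26. Of the 9 TALE cofactors, homeodomain partners of Hox proteins, 6 were tested between cultures and 2 were called, both higher in Colon 26. Pbx3 was among them (log2 fold change 1.13, SE 0.05, adjusted p = 8.4e-12). In tumors Pknox2 was called higher in Colon 26 at 100 mm3 and, with Meis1, at 800 mm3, and Meis1, at the floor in all cultures, was at least 4.05-fold and 11.6-fold higher in tumors of CT-26 and Colon 26. Of the 6 caudal and ParaHox factors, relatives of the Hox genes, 2 were tested in each comparison of the lines and both were called in culture. Cdx2, which activates Hox genes of the hind body and is the main intestinal identity factor, had 2 to 6 counts in CT-26 cultures and 229 to 242 in Colon 26 cultures (log2 fold change 5.3, SE 0.24, adjusted p = 4.6e-12). It stayed apart in tumors of 100, 400 and 800 mm3, at 4.7 (SE 0.44, adjusted p = 4.3e-05), 4.68 (SE 0.62, adjusted p = 0.00039) and 4.79 (SE 0.35, adjusted p = 3e-06). Pdx1, known from pancreas and duodenum, was 2.28 (SE 0.1, adjusted p = 3.5e-12) in culture.

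All 13 Polycomb group genes were tested between the lines in each of the 4 settings, and 0 were called by edgeR or DESeq2. By edgeR 7 or 8 had an unadjusted p under 0.05 in each, with medians of log2 fold change from -0.14 to 0.0. Of all genes, 11511 of 14334 were under 0.05 in culture, and 8543 of 15406, 7892 of 15241 and 8996 of 15521 in tumors of rising size. From culture to tumors of 100 mm3, Jarid2 and Ezh2 were higher in CT-26 and Jarid2 in Colon 26. These were 2 and 1 of 13 tested, against 32.2% and 26.9% of all genes. Of the 10 Trithorax genes and H3K27 demethylases, 3 were called between cultures, against 22.9% of all genes. Dot1l (1.06 (SE 0.04, adjusted p = 1e-12)), Men1 (1.01 (SE 0.04, adjusted p = 5.9e-13)) and Ash1l (1.03 (SE 0.03, adjusted p = 8.2e-14)) were higher in Colon 26 cultures. Ash1l, a histone methyltransferase, was called at each tumor size too, at 1.4, 1.48 and 1.58. Between culture and tumor 0 of the 10 were called by edgeR or DESeq2 in either line, with 10 in CT-26 and 6 in Colon 26 at an unadjusted p under 0.05. Of all genes, 11205 of 15370 in CT-26 and 12147 of 15946 in Colon 26 were under 0.05 in the same edgeR test. Of the 12 retinoic acid genes, 1 of 7 tested was called between cultures, against 22.9% of all genes. It was Crabp2, which carries retinoic acid to its receptor (log2 fold change 5.36, SE 0.07, adjusted p = 2.7e-18), with 94.6 to 101 CPM in Colon 26 and 1.89 to 2.88 CPM in CT-26. In tumors it stayed higher at each size, at 2.08, 1.90 and 2.47, and Rarb, a retinoic acid receptor, was lower at -1.8 (SE 0.29, adjusted p = 0.00093), -1.76 (SE 0.32, adjusted p = 0.0022) and -1.43 (SE 0.29, adjusted p = 0.0023). Of 10 tested at each size, 2 were called higher and 3 lower at 100 mm3, 2 and 2 at 400 mm3, and 1 and 3 at 800 mm3. Of all genes, 13.2%, 14.3% and 14.1% were called in either direction. From culture to tumors of 100 mm3, 4 of 9 tested rose in CT-26, against 22.2% of all genes called higher. In Colon 26, 4 of 10 tested rose and 2 fell, against 20.8% of all genes called higher and 6.12% lower.

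Of 15 noncoding RNAs of the clusters, 10 were in the table and 4 were tested between cultures, where Hoxa11os was called as given above. In tumors, Hoxaas2 was called higher in Colon 26 at 800 mm3, and Hoxa11os was lower in Colon 26 tumors than in cultures. Of 14 protein genes that flank the clusters, 12 were in the table and 7 were tested between cultures. Of these 7, 2 were called, against 22.9% of all genes. Calcoco1 (-1.37 (SE 0.04, adjusted p = 7.3e-15)) and Smug1 (-1.13 (SE 0.06, adjusted p = 3.6e-11)), which flank the Hoxc cluster, were lower in Colon 26. Inside the cluster 4 members were tested between cultures and went both ways. Hoxc4 and Hoxc8 were called higher in Colon 26. Short of the limit on the fold, Hoxc5 was higher (means of 2.37 against 1.52 CPM) and Hoxc6 lower (9.72 against 17.2 CPM). Skap1, beside the Hoxb cluster and active in T cells, was lower in Colon 26 tumors of 100 and 400 mm3 and higher in tumors than in cultures of both lines, and Skap2 was higher in tumors of Colon 26.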

How the data were processed

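RNA was measured in 6 cultures and 24 tumors. Poly-A libraries were read as paired reads of 150 bases and quantified by the authors with Array Studio against Ensembl release 78. The deposited values used here were gene-level estimated counts, of which 22.6% above 0 were not whole, and FPKM made by the authors. The aligner, genome build and strand setting are not given in the sources used here, and the submitters' processing notes name DESeq2 1.24.0. Symbols and coordinates came from GENCODE for GRCm38, which matched 52207 of 53431 genes (97.7%). Promoters came from RefSeq (GRCm38.p6).

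Estimated counts were rounded and tested in edgeR 4.0.16 (R 4.3.3, limma 3.58.1) with the quasi-likelihood test, TMM factors and filterByExpr, over the groups compared. A call needed an adjusted p no higher than 0.1 and a log2 fold change of 1 or more in size, and SE was derived from the F statistic. CPM used TMM factors over the 30 libraries, whose totals of 21384730 to 39722586 counts set the precision. The floor of 3 counts per library covers counting error only. The code was tested on simulated data. Alternatives were other normalizations, no filter, DESeq2 1.42.0, equal depth, a fit of all libraries, a floor of 10 counts and leaving out each library. The members described with full values were 19 chosen by a rule on level and on calls, and Hoxb8, which was added outside that rule. Members, lists (TALE, caudal, Polycomb, Trithorax, retinoic acid, noncoding RNAs, flanking genes and cell type markers) and tests were chosen with earlier results of these data known. A member and a gene of the TALE list are not reported here by name and stand in counts only.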

Additional observations from a re-analysis of the deposited data

Results flagged for a closer look

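In 5 of 111 groups of 4 tumors tested, a single tumor lay far from the other three by Dixon's test, where chance gives about 5%, or 1 in 20. Hoxc4 was 2.3 CPM in CT-26 replicate 3 at 100 mm3, against 1.69 to 1.79 CPM in the others. Hoxc5 was 2.62 CPM in CT-26 replicate 4 at 800 mm3, against 2.89 to 2.91. Hoxd9 was 0.946 CPM in Colon 26 replicate 4 at 400 mm3, against 0.493 to 0.522, and 0.402 CPM in Colon 26 replicate 4 at 800 mm3, against 0.622 to 0.649. Hoxd3 was 0.0 CPM in CT-26 replicate 3 at 800 mm3, against 0.247 to 0.291.

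The change from culture to tumors of 100 mm3 differed between the lines, by edgeR's test of the interaction, for Hoxb7 (adjusted p = 0.00027), Hoxb4 (adjusted p = 6.3e-06), Hoxc8 (adjusted p = 2.1e-05) and Hoxc9 (adjusted p = 0.055). Each of these rests on a group at the floor, in CT-26 cultures or, for Hoxc9, in the cultures of both lines.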

How the results depend on the processing

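For the 60 pairs of member and comparison that were called, 770 values were computed under the alternatives, of which 731 kept the call, 39 lost it with the same direction, and 0 changed sign. In a further 8 cases a library was left out and the member was no longer tested, which were Hoxb7 in CT-26 tumors over cultures (3 cases) and Hoxa4 (4) and Hoxc9 (1) in Colon 26 tumors over cultures. For 59 pairs past the adjusted p alone, 39 of 790 values reached the limit on the fold. The number of members called between CT-26 tumors and cultures moved most, from 6 to 13 without a filter on low counts, 12 by DESeq2 and 14 with all 30 libraries fitted together, and ranged from 4 to 10 when a library was left out. The members added by the first of these have too few counts for the filter. Between Colon 26 tumors of 800 and 100 mm3 the count ranged from 1 to 2, with 2 without Colon 26 replicate 2 at 800 mm3. The difference between the lines in the change with size was called for 0 members by edgeR and 1 by DESeq2, and the cause was not tested. DESeq2 moved the median log2 fold change of all genes from tumors over cultures to 0.136 in CT-26 and 0.193 in Colon 26, from 0.06 and 0.05. No paired analysis was possible because the labels carry no replicate numbers shared between groups. Members at a few counts per library limit what the depth can show.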
